A study of Mus musculus with 20 samples.

Results

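Late retinal progenitors are the dividing cells of the postnatal mouse retina, from which rods, bipolar cells, late amacrine cells and Müller glia arise. The cells described here are those that the authors annotated as progenitors in the deposited description of cells, 11818 of 79009 cells in all 20 libraries. The name is thus a label, and division was not measured. As given below, most of these cells in P5 libraries had few UMIs of cell cycle genes and higher levels of Müller glia genes than at P2. Rods were the most numerous of the other annotated types (38650 cells), ahead of amacrine cells (13556), neurogenic cells (9239) and bipolar cells (4530). Müller glia were 221 cells, cones 842, horizontal cells 55 and starburst amacrine cells 98.

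All libraries came from cultured retina of CD1 wildtype mice that had been electroporated, and GFP-positive cells were isolated before droplet 3′ sequencing. The plasmids, of the pCAGIG type, carried GFP alone (control), MEIS1, MEIS2 or an equal mix of both (combination). MEIS1 and MEIS2 are related homeodomain transcription factors, and the series title names their part in the timing of fates and in neurogenesis as its subject. The labels give P2 or P5 as age, and each age held 4 control libraries and 2 libraries of each construct group. The design text gives days of treatment instead of an age, so P2 and P5 are used below as the names of the labelled groups. Nothing states that libraries came from separate animals, so a p-value measures the spread between libraries, which may be technical.

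Retinal progenitors keep dividing under Notch signalling: a differentiating neighbour displays Delta ligands, and Notch in the progenitor switches on the repressors Hes1 and Hes5. Cells about to leave the cycle switch on proneural factors such as Neurog2. Late in development the remaining progenitors take on genes of Müller glia, with which they share much of their expression, and most stop dividing.

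The number of progenitors per library ran from 63 in P5 MEIS2 library 1 to 2482 in P2 control 1. Their median number of UMIs per cell (each UMI is a counted RNA molecule) ranged from 1067 to 21034 at P2, with a median of 12286, and from 10926 to 26381 at P5, with a median of 22446. The median mitochondrial share was 0.436% to 7.17%. Some libraries stood apart. P2 MEIS2 library 2 was the shallowest, and P5 control 3 and P5 combination 1 had far larger shares of progenitors with cell cycle genes than the other 8 P5 libraries. In P2 control 1 and P2 combination library 2 the prefix of the cell barcodes names a group other than the deposited library column does, and the column was followed. A doublet caller marked 3.797% of all cells and 17.5% of the progenitors of P2 control 1. It marked under 0.5% of cells in 7 of 20 libraries, with 0 of 4712 in P2 control 2 and 0.0159% in P5 control 1, a library of over 5000 cells, so its calls are not informative there. Of the progenitors, 30 (0.254%) had a barcode that was also a progenitor's in another library.

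The levels of 5 marker genes describe the labelled cells and do not check the label, because the annotation was made from the same counts. Levels are CPM, a gene's UMIs scaled to a fixed total for each library's progenitors, and since each molecule is counted once at its 3′ end, no length factor was applied. Hes1, the Notch effector, had a mean of 497 CPM in progenitors, 132 in neurogenic cells and 3.81 in rods. Ccnd1, the G1 cyclin of retinal progenitors, had 436 CPM against 172 and 10.8. Sox2, a factor of neural stem and progenitor cells, had 172 CPM against 62.7 and 7.0, and 99.1 and 357 in the 2 libraries with enough starburst amacrine cells. Both secreted markers had lower levels: Sfrp2, a Wnt inhibitor, had 14.3 CPM against 2.67 and 1.28, and Fgf15, a growth factor of early progenitors, 14.9 against 3.19 and 0.164. In the 4 libraries with enough annotated Müller glia, Sfrp2 had 23.3 to 115 CPM in those cells and Fgf15 0 to 57.4, against 2.71 to 34.1 and 0.768 to 45.9 in the progenitors of 20 libraries. Progenitors lay above neurogenic, rod, amacrine and bipolar cells of their library (types with at least 20 cells) in 20 of 20 libraries for Hes1 and Sox2, 19 for Sfrp2, 18 for Ccnd1 and 17 for Fgf15.

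The genes that set progenitors apart from neurogenic, rod, amacrine and bipolar cells of the same library fell into 2 groups. These genes are a description without a test, because the annotation was made from the same counts. The first was of the cell cycle: Top2a, the mitotic topoisomerase, had a mean of 231 CPM in progenitors against 3.27 in neurogenic cells and 2.50 in rods. Ube2c and Birc5, of mitotic exit and the spindle, had means of 152 and 90.3 CPM, against means under 4 CPM in each neuronal type, with up to 26.4 CPM of Ube2c in the cones of 1 library. These means hide a wide range over the progenitors of the libraries: 4.99 to 855 CPM for Top2a, 1.87 to 604 for Ube2c and 3.43 to 362 for Birc5. The smallest difference to the highest of the other types was 0.0922 for Top2a in log2 (CPM + 5), and -1.11 for Spc25, of the same group. The other group was shared with Müller glia. Crym, a thyroid hormone binding protein, had 2413 CPM in progenitors (233 to 7495 over libraries), 2280 in Müller glia, 664 in neurogenic cells and 13.4 in rods. Rlbp1, the retinoid carrier of Müller glia (chromosome 7, 79374870 to 79387048, minus strand, mm10), had 860 CPM in progenitors (117 to 1906 over libraries), 406 in annotated Müller glia and 4.36 in rods. The progenitor means pool both ages. Those of Müller glia rest on P2 control 1, P5 control 3, P5 MEIS1 library 2 and P5 combination 1. Col9a1, Sulf1, Pdpn, Metrn and Vcam1, of matrix and cell surface, were likewise shared with Müller glia, with means of 109 to 345 CPM in progenitors and at most 9 CPM in rods, cones, bipolar and amacrine cells. The highest of these means, that of Pdpn, was 223 CPM without P2 MEIS2 library 2, which had 2660.

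Pax6 and Rax, factors of the eye field, were present but were not highest in progenitors. Pax6 had 324 CPM in progenitors and 864 in amacrine cells, and Rax had 245 against 409 in rods. Lhx2, another factor of the eye field, had 240 CPM and lay above these other types in 20 of 20 libraries.

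**Figure D1:**
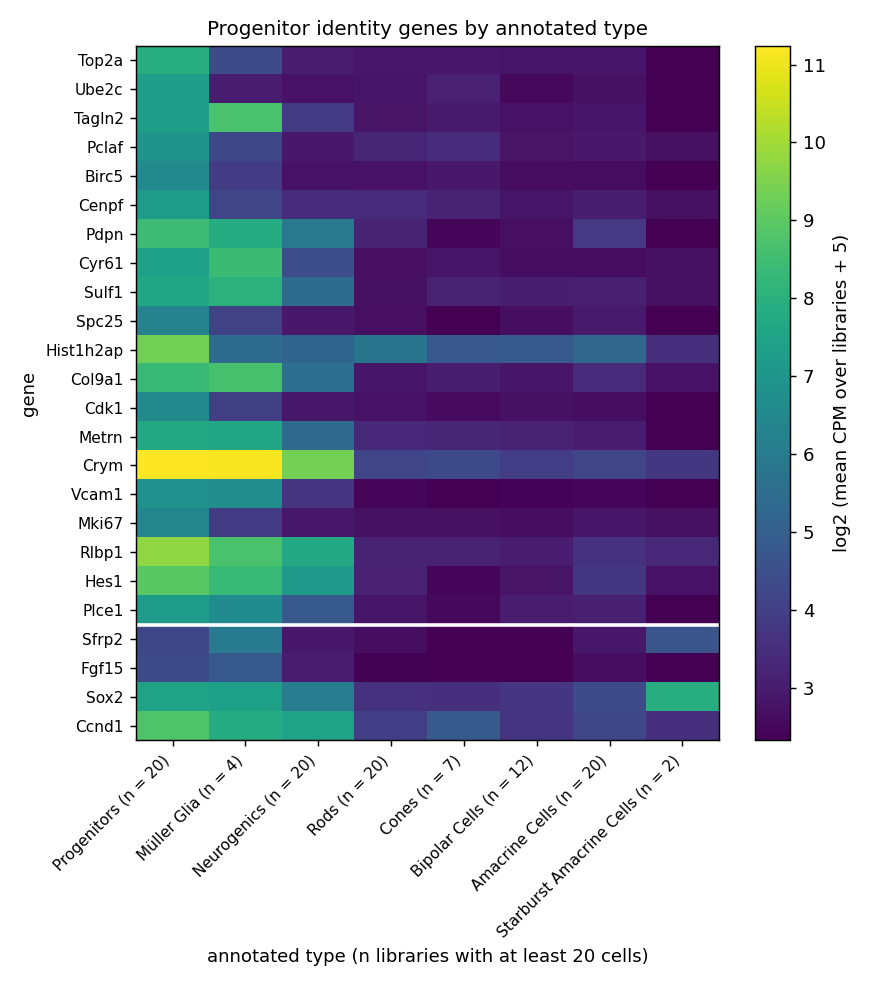
Colour gives log2 (mean CPM over libraries + 5) for the 20 genes that set progenitors most apart and, under the white line, the other 4 progenitor markers; columns are annotated types with the number of libraries that held at least 20 cells. Cell cycle genes such as Top2a are bright in the progenitor column, while Crym, Rlbp1 and Col9a1 are bright in Müller glia too.

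Several markers of mature cells were low in progenitors. Nrl had 17.5 CPM, or 9.2 without P2 MEIS2 library 2 (175 CPM), against 430 in rods, Tfap2b 7.2 against 492 in amacrine cells and Otx2 98 against 1155 in rods. Of glial genes, Gfap, an astrocyte marker in the lists used here, had 2.4 CPM against 169 in annotated Müller glia. The water channel Aqp4 had 3.1 (0 to 10.49 over libraries) against 8.2 (1.67 to 17.8). The intermediate filament gene Vim had 978 CPM against 3471. Not all glial genes went this way: the mean of Rlbp1, given above, was higher in progenitors, pooled over both ages, than in annotated Müller glia. The means of Müller glia rest on 4 libraries and those of starburst cells on 2.

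Within the type, the authors' clusters differed in genes of S phase and mitosis. Division was not measured, and low levels of these genes do not tell cells in G1 from cells that left the cycle. Leading genes are those with the largest log2 difference to all other cells of the series, neurons included, with libraries pooled. They do not by themselves set a progenitor cluster apart from the other progenitor clusters. Cluster 3 held 8376 cells (70.9%) and was led by Rlbp1, Col9a1, Vcam1, Mfge8 and Crym. Cluster 12 held 2325 cells (19.7%) and was led by replication-dependent histone genes such as Hist1h1b and Hist1h2ap with Pclaf and Rrm2, genes of S phase. Cluster 16 held 1117 cells (9.45%) and was led by Ube2c, Cdc20, Cenpf, Cenpa and Ccnb1, genes of G2 and mitosis. None of the 5 progenitor markers was among the 10 leading genes of cluster 3, while Rlbp1, Mfge8 and Crym of the late progenitor list and Rlbp1 and Fxyd1 of the Müller glia list were, so comparisons are also given for cluster 3 by its number.

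The 11 libraries with at least 20 cells in each cluster were 9 at P2 with P5 control 3 and P5 combination 1, so means over them weigh mostly P2. Mki67 had a mean of 5.7 CPM in cluster 3, 346 in cluster 12 and 418 in cluster 16. Pcna, the replication clamp, had 17.5, 157 and 18.7 CPM, and so was high in cluster 12 alone. Ccnb1, the mitotic cyclin, had 1.6, 148 and 443 CPM. The clusters also differed along the path to neurons and glia, which again is a description. Neurog2 had 14.8 CPM in cluster 3, 92.9 in cluster 12 and 170 in cluster 16, and Hes6 had 318, 818 and 1066 CPM. Apoe ran the other way, with 2727, 1114 and 582 CPM (in cluster 3 a median of 1376 at P2 and 8194 at P5), and Rlbp1 had 568, 165 and 105 CPM, highest in cluster 3 in 11 of 11 libraries. Sox2 (173, 187 and 168 CPM), Sfrp2 (19.4, 25.3 and 21.9) and Fgf15 (24.4, 27.3 and 21.0) were nearly level across the clusters. Ccnd1 had 539, 586 and 348 CPM and was highest in cluster 3 in 5 of 11 libraries. Its relative Ccnd3 had 86.0, 52.6 and 28.2 CPM and was highest in cluster 3 in 11 of 11.

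**Figure D2:**
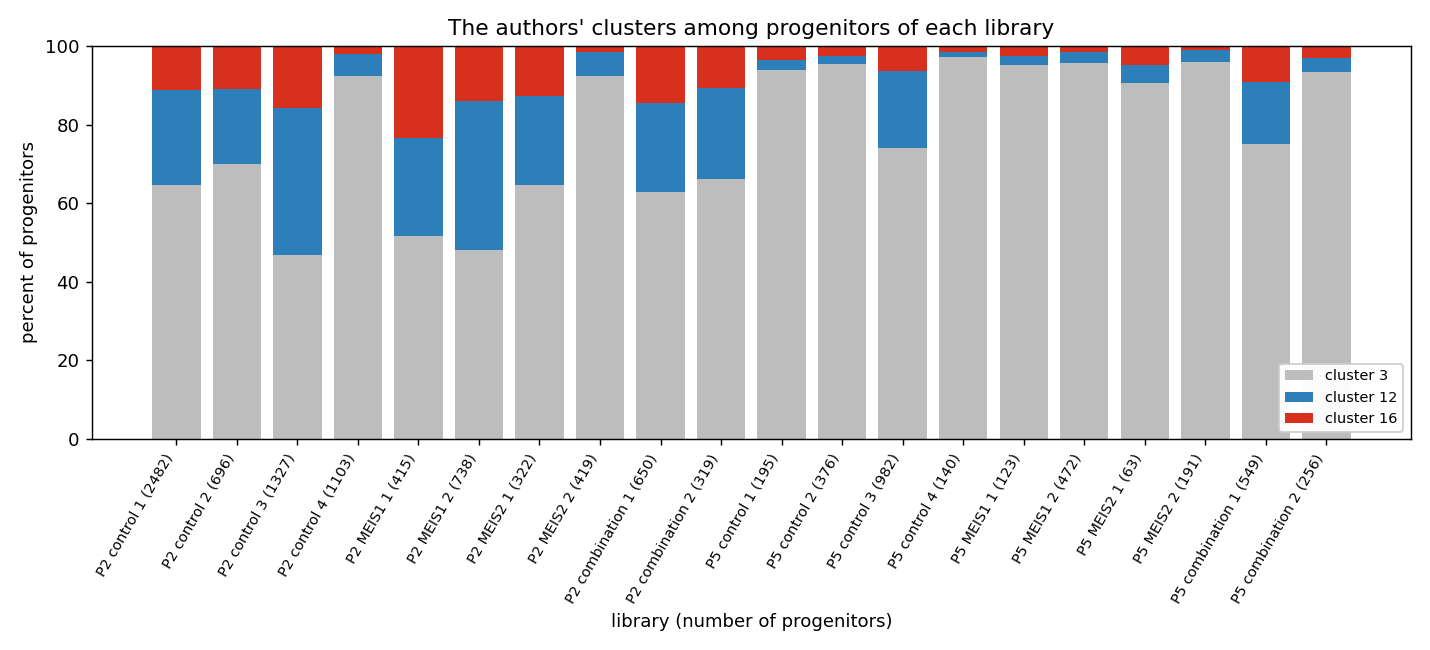
Bars show the percent of each library's progenitors in the authors' clusters 3, 12 and 16, with the number of progenitors after each library's name. Cluster 3 takes 46.8% to 92.4% at P2, 74.1% in P5 control 3, 75.0% in P5 combination 1 and 90.5% to 97.1% in the other P5 libraries.

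The genes that varied most from cell to cell within a library included GFP, cell cycle genes and glial genes, besides genes of none of these groups. Each cell was thinned to 2000 UMIs, and the variance of a gene's UMIs over cells was divided by its mean, a ratio that is near 1 for counting noise and had a median of 1.02 over 6121 genes. GFP, carried by the construct, had a ratio of 35.5. Hist1h2ap (8.55), Hmgb2 (6.44), Hist1h1b (5.11), H2afz (4.65), Ube2c (4.04) and Top2a (3.26) belong to the cell cycle. Apoe (3.54), the Notch target Hes5 (3.50) and Dbi (3.27) followed. The noncoding RNAs Malat1 (10.4) and Gm42418 (4.72) ranked among the first 6. The adhesion gene Nlgn1 (3.33), Dcc (3.15), Cadm2 (3.01), Stmn1 (2.96), Xist (2.94), Cenpf (3.13) and Hist1h2ae (2.87) complete the first 20 together with Fabp7. Fabp7, a fatty acid binding protein of neural progenitors, had a ratio of 5.66 at P2 and 1.54 at P5.

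Progenitors made up a smaller share of the P5 libraries. They were 14.0%, 14.8%, 25.2% and 27.4% of the cells of the P2 controls and 3.10%, 9.502%, 17.2% and 7.15% of those of the P5 controls. The MEIS libraries held 16.8% to 29.4% at P2 and 3.01% to 20.7% at P5. The P5 shares were lower by 11.1 percentage points on average over the 4 treatments (two-sided exact permutation test of age labels within each treatment, 20 libraries, p = 0.00159, 0.00397 after Benjamini-Hochberg adjustment over 10 share tests). Control 3 and MEIS1 library 2, at 17.2% and 20.7%, were the P5 libraries inside the P2 range. These shares depend on the authors' annotation and on the GFP sort. The 4 controls of each age alone gave a difference of -11.1 points (exact p = 0.0857).

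Fewer of the remaining progenitors carried cell cycle genes at P5. A progenitor was called rich in a list when it had at least 3 UMIs of the list's genes after thinning to 2000 UMIs. S phase-rich progenitors were 29.3%, 25.98%, 40.8% and 11.1% in the P2 controls and 5.70%, 3.49%, 23.1% and 2.86% in the P5 controls. Mitosis-rich progenitors were 28.5%, 27.6%, 48.8% and 6.82% in the P2 controls and 4.15%, 2.42%, 22.0% and 1.43% in the P5 controls. Among MEIS libraries the S phase-rich share was 12.05% to 39.9% at P2 and 5.79% to 20.1% at P5, and the mitosis-rich share 10.8% to 44.7% at P2 and 2.09% to 20.5% at P5. P5 control 3 and P5 combination 1 were the 2 high P5 libraries in both measures, and P2 control 4 and P2 MEIS2 library 2 the 2 low P2 libraries. The S phase-rich share was 19.8 points lower at P5 (exact permutation test as above, adjusted p = 0.00220) and the mitosis-rich share 22.8 points lower (adjusted p = 0.00198). The 4 controls of each age alone gave -18.0 and -20.5 points (exact p = 0.0571 for both).

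The background of these shares can be read in rods, which do not divide. Rods were S phase-rich in 2.04% to 7.45% of cells at P2 and 2.92% to 5.68% at P5, and mitosis-rich in 0% to 1.697% and 0.104% to 0.832%. Rods had median depths of 836 to 10428 UMIs at P2 and 2422 to 8160 at P5, and were thinned in the same way. In 8 of 10 P5 libraries the progenitors' S phase-rich share was 2.86% to 8.59%, near that of rods. Their mitosis-rich share was 1.43% to 4.30%, above the 0.104% to 0.832% of P5 rods. Without thinning the S phase-rich share was 16.002 points higher at P5 (adjusted p = 0.102) and the mitosis-rich share 13.6 points lower (adjusted p = 0.228), beside the deeper P5 cells.

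Neurogenic-rich progenitors, by a list with Neurog2, Otx2 and Neurod1, were 40.6% to 45.2% of cells in 9 P2 libraries and 95.2% in P2 MEIS2 library 2, where 83 cells were deep enough. P5 libraries ranged from 5.38% to 44.6%, and 4 of them, at 41.4% to 44.6%, lay within the P2 range. The P5 share was 21.8 points lower (exact permutation test, adjusted p = 0.0143), and 16.4 points lower in the controls alone (exact p = 0.0571). The call was lost without P2 MEIS2 library 2 (-15.6 points, adjusted p = 0.0611) and without P5 MEIS2 library 2 (-18.3 points, adjusted p = 0.123). Unthinned, it was 9.79 points higher at P5 (adjusted p = 0.102). The list also holds genes of young photoreceptors. Rods were neurogenic-rich in 97.0% to 100% of cells at P2 (median 99.3%) and 74.7% to 99.7% at P5 (median 88.45%). Annotated neurogenic cells were so in 96.9% to 100% (median 99.4%) and 63.4% to 92.4% (median 85.95%). A lower share at P5 was thus not particular to progenitors. Glia-rich progenitors were 91.6% to 100% of cells in every library, so this share had little room to rise. It was 2.98 points higher at P5 (exact permutation test, adjusted p = 0.00198), 2.25 points higher in the controls alone (exact p = 0.0857) and 1.44 points higher unthinned (adjusted p = 0.102). Annotated neurogenic cells were glia-rich in 50% to 73.7% of cells at P2 (median 59.96%) and 64.9% to 89.1% at P5 (median 77.8%). Rods were so in 16.3% to 43.55% (median 26.3%) and 18.5% to 56.75% (median 34.5%), so the medians of these types were higher at P5 too.

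**Figure D3:**
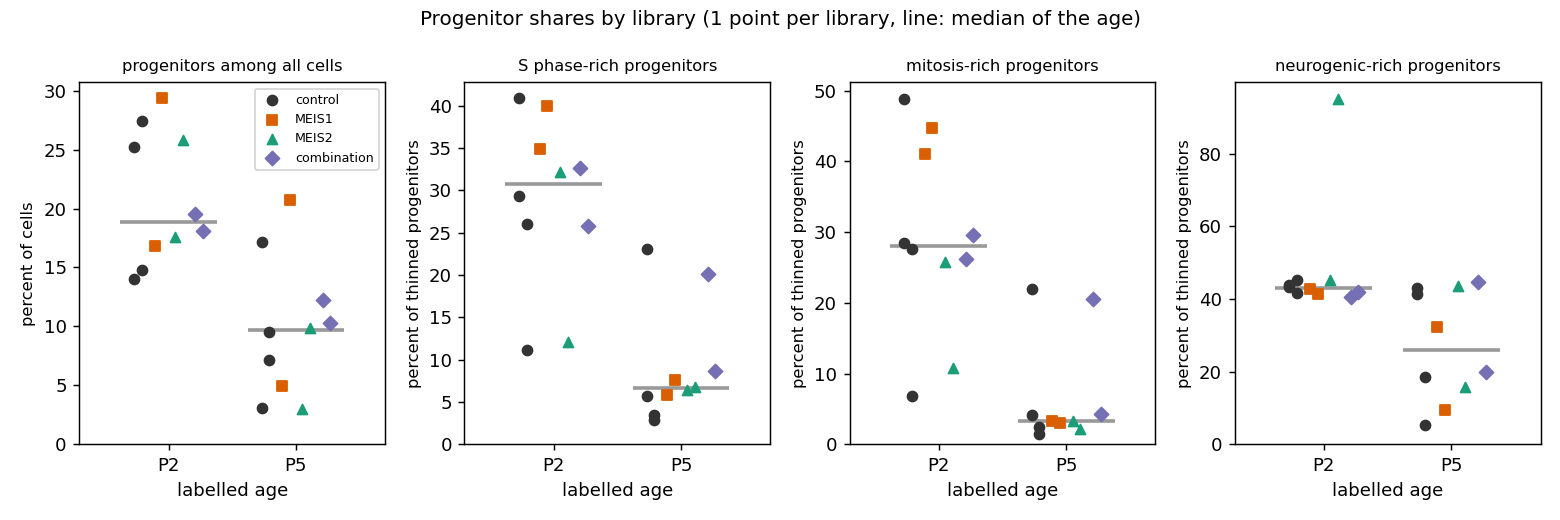
Each point is a library, placed by labelled age and marked by treatment; the vertical axes give the percent of all cells annotated as progenitors and the percent of thinned progenitors with at least 3 UMIs of a list. P5 control 3 and P5 combination 1 lie above the other P5 libraries in the S phase and mitosis panels, at 20.1% to 23.1%.

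UMIs were then summed over the progenitors of each library and tested gene by gene with edgeR's quasi-likelihood test, in a fit with 1 mean for each of the 8 groups. Between P2 and P5, 5901 of 14849 genes passed an adjusted p of 0.05 (39.7%), 2936 higher at P5 (19.8%) and 2965 lower (20%). Without TMM scaling factors 6003 genes passed and 36.8% of them were higher, against 49.8% with them. The median log2 fold change of all genes was -0.03 with these factors and -0.16 without. With so many genes changed, the list counts below are to be read against 19.8% and 20%. In summed counts, fewer cells that express a gene and less RNA per cell cannot be told apart. The same test was also run on cells of cluster 3 alone, where 4703 of 13623 genes passed (34.5%), 19.0% higher and 15.5% lower. That run again sums counts, so it does not separate the fraction of cells from the level per cell. Cluster 3 was also drawn from the same counts and is low in cell cycle genes, so smaller falls of those genes there are partly built in. In the 8 control libraries alone 2117 of 13217 genes passed (16%), 10.7% higher and 5.34% lower. Without P5 control 3 and P5 combination 1, 5550 of 15194 passed (36.5%), 17.9% higher and 18.7% lower. Depth, stated above, differed between the ages, and its part in these differences was not tested.

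Of the 5 progenitor markers, Sfrp2 and Fgf15 fell, and Hes1, Sox2 and Ccnd1 did not pass. Sfrp2 (chromosome 3, 83766321 to 83774316, plus strand) had 15.4 to 34.1 CPM at P2, median 21.9, and 2.71 to 13.9 at P5, median 5.41. No P5 library reached the lowest P2 library, and the log2 fold change was -1.84 (SE 0.259, adjusted p = 4.44e-05). Fgf15 (chromosome 7, 144896531 to 144900953, plus strand) had 6.15 to 45.9 CPM at P2, median 23.6, and 0.768 to 17.5 at P5, median 2.51, a log2 fold change of -2.80 (SE 0.349, adjusted p = 1.52e-05). The 2 ages overlapped for Fgf15 through P2 MEIS2 library 2, the lowest at P2, and through P5 combination libraries 1 and 2, the highest at P5. Hes1 had medians of 406 and 584 CPM (log2 fold change 0.50, adjusted p = 0.178), and Sox2 of 168 and 166 (0.17, adjusted p = 0.402). Ccnd1 had medians of 517 and 360 CPM (-0.39, adjusted p = 0.147). In cluster 3 Ccnd1 passed, with -0.53 (adjusted p = 0.0445).

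Genes of Müller glia rose as a group: 18 of 20 rose and 0 fell, with a median log2 fold change of 1.92, against -0.03 over all genes. In 12 of the 20, all 10 P5 libraries lay above all 10 P2 libraries, as did 2.81% of all genes tested. Apoe, the lipid carrier of glia (chromosome 7, 19696109 to 19699188, minus strand), had 367 to 2127 CPM at P2, median 927, and 5193 to 13675 at P5, median 7582 (log2 fold change 3.14, SE 0.315, adjusted p = 1.8e-06). Rlbp1 had 117 to 387 CPM at P2, median 319, and 840 to 1906 at P5, median 1424 (2.39, SE 0.21, adjusted p = 5.18e-07). Both genes were apart in every library. The glutamate transporter Slc1a3 rose by 1.87, glutamine synthetase Glul by 0.89, and carbonic anhydrase Car2 by 2.37 on the log2 scale. Aqp4 had at most 0.881 CPM at P2 and 1.83 to 10.49 at P5, within the 1.67 to 17.8 of annotated Müller glia. Sox9, a factor of progenitors and glia, had -0.23 (adjusted p = 0.451), and Dkk3 0.28 (adjusted p = 0.0744). In cluster 3 alone 18 of 20 rose, with a median of 1.65.

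The list's sum was 6473 to 13115 CPM in P2 progenitors and 18217 to 31387 at P5. It was higher at P5 also in neurogenic cells, at 1851 to 2957 and 4160 to 13363 CPM, and little different in rods, at 812 to 1266 and 746 to 1684 CPM. Of 20 genes linked to late progenitors, 8 of them also in the Müller glia list, 13 rose and 0 fell (median 0.77). Nfia and Nfib, which drive late competence, were level, at 0.02 each (adjusted p = 0.938 and 0.944), while Nfix rose by 0.56 (SE 0.157, adjusted p = 0.0092). Crym rose by 3.27, from a median of 526 CPM to 4315.

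Early progenitor genes fell in 11 of 18 tested members of 20, and 1 rose, with a median of -0.80. Igf2bp1, an RNA-binding protein of young progenitors, went from a median of 50.1 CPM to 8.31 (log2 fold change -2.05, SE 0.231, adjusted p = 5.47e-06). The RNA-binding protein gene Lin28b fell by 1.65 and Sox11, a factor of young neurons, by 1.80 on the log2 scale. Hmga2, a chromatin protein gene of the same list, rose, from 4.87 to 18.7 CPM at P2 to 19.8 to 55.8 at P5 (1.82, SE 0.236, adjusted p = 2.18e-05). Of 23 eye field and progenitor factors, 5 rose, near the share of all genes, and 1 fell, below it. Tcf7l1, Zfp36l1, Id3, Six6 and Sox8 rose, and Meis2, which the constructs carry, fell by 0.45 over all groups (adjusted p = 0.0493), a call kept in 8 of 20 fits that left out a library. In the controls, whose plasmid is labelled as GFP alone, Meis2 had 95 to 197 CPM at P2 and 34.6 to 50.1 at P5, with no overlap. The 197 was in P2 control 1, whose cell barcodes are prefixed as a combination library. Pax6, Rax, Lhx2 and Six3 did not pass and had log2 fold changes between -0.17 and 0.26.

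**Figure D4:**
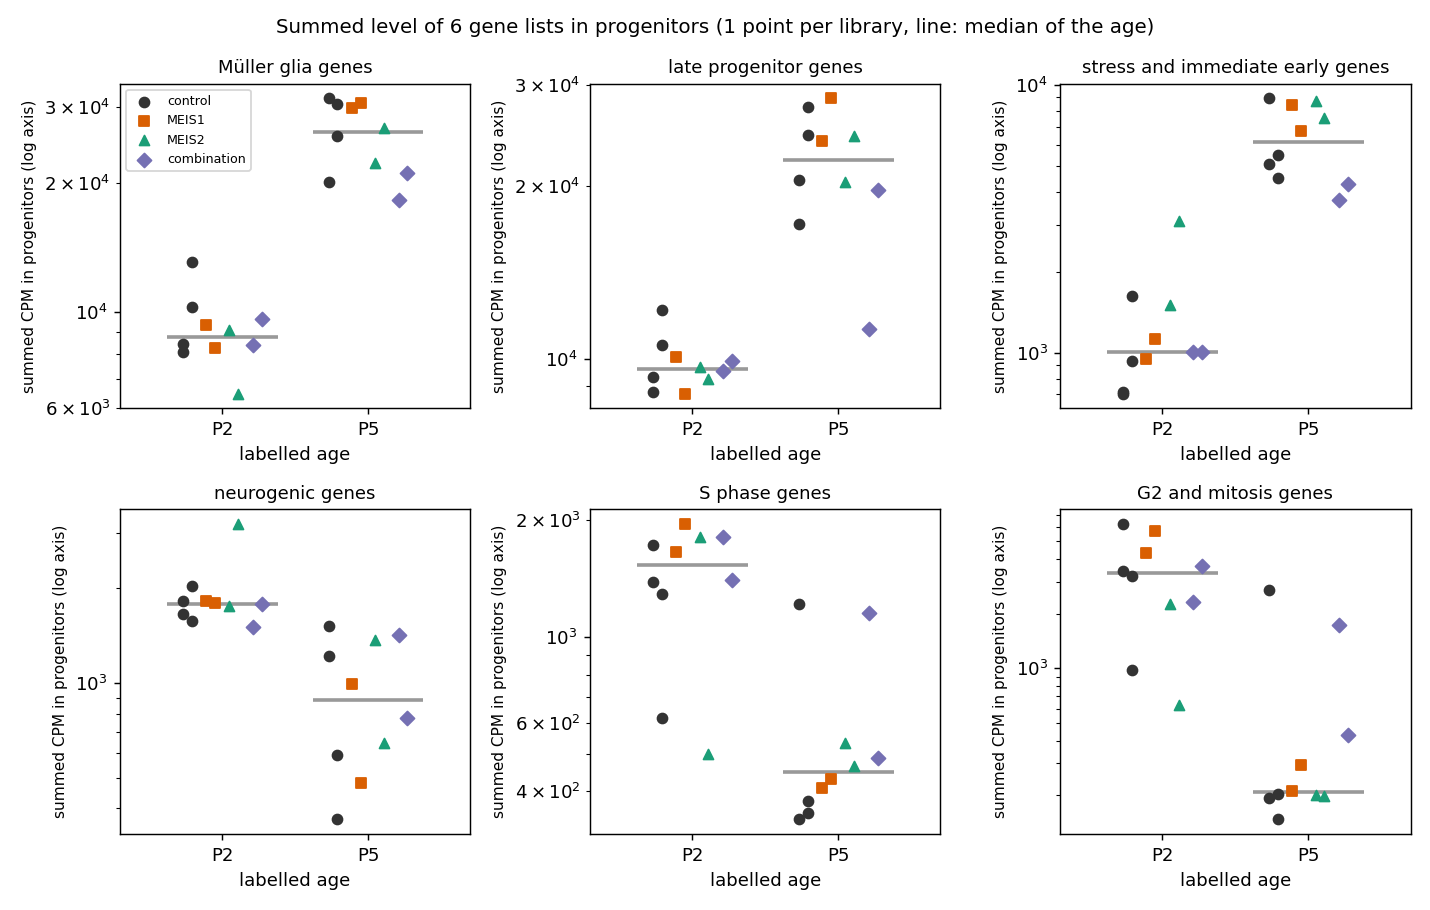
Each point is a library's summed CPM of a gene list in progenitors, on a log axis, by labelled age and treatment. Müller glia and stress lists lie higher in every P5 library than in any P2 library, while S phase and mitosis lists overlap, with P5 control 3 and P5 combination 1 highest at P5 and P2 MEIS2 library 2 lowest at P2.

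Of the Notch pathway, 4 ligands fell, and the receptors and the Hes effectors did not pass. Of 25 pathway genes 24 were tested, 8 fell and 0 rose, with a median of -0.25. Dll1, the Delta ligand of cells entering differentiation, had 35.4 to 73.5 CPM at P2, median 53.7, and 3.26 to 29.5 at P5, median 10.45 (log2 fold change -2.18, SE 0.299, adjusted p = 3.65e-05). Dll3 (chromosome 7, 28293553 to 28302238, minus strand) fell by 4.35, from a median of 26.4 CPM to 0.858, and Dll4 by 4.36, from 7.39 to 0.4. For these 3 ligands no P5 library reached the P2 range. The ligand Jag1 fell by 1.67, the glycosyltransferase Mfng by 2.87 and Rbpj, the DNA-binding partner of Notch, by 0.67 on the log2 scale. The receptor Notch1 had -0.32 (adjusted p = 0.118), and the effectors Hes1 and Hes5 0.50 (adjusted p = 0.178) and -0.26 (adjusted p = 0.517). In cluster 3, 10 fell and 0 rose. Without P5 control 3 and P5 combination 1, 6 fell and 1 rose.

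Neurogenic genes fell in 18 of 20 and rose in 1, with a median of -2.37. In 10 of the 20 all P5 libraries lay below all P2 libraries, as did 1.65% of all genes. Hes6, which opposes Hes1, had 397 to 671 CPM at P2 and 77.7 to 382 at P5, with no overlap (-1.72, SE 0.255, adjusted p = 7.53e-05). Insm1, a zinc-finger gene of newborn neurons (chromosome 2, 146221921 to 146225020, plus strand), went from a median of 71.9 CPM to 5.25 (-3.45, SE 0.399, adjusted p = 7.44e-06). Neurog2 fell by 2.19, Otx2, the photoreceptor and bipolar factor, by 2.95 and Neurod1 by 3.002 on the log2 scale. Btg2, an antiproliferative and early response gene, rose by 1.58 (SE 0.328, adjusted p = 0.00127), and Gadd45a had -0.22 (adjusted p = 0.488). In cluster 3, 15 of 18 tested fell and 1 rose, with a median of -2.06.

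S phase genes fell in 29 of 30, with a median of -1.48, and G2 and mitosis genes in 30 of 30, with a median of -2.61. In the 8 control libraries alone, 2 of 30 S phase genes and 1 of 30 mitosis genes fell, where 5.34% of all genes were lower, with medians of -1.12 and -2.07. Mcm7, of the replicative helicase, had a median of 76.5 CPM at P2 and 23.3 at P5 (-1.43, SE 0.224, adjusted p = 0.000119), and Pcna of 57.8 and 19.3 (-1.17, SE 0.282, adjusted p = 0.00363). Only the clamp loader gene Rfc2 did not pass (-0.33, adjusted p = 0.21). Top2a had 145 to 855 CPM at P2 and 4.99 to 302 at P5 (-3.14, SE 0.658, adjusted p = 0.00133). For none of these 60 genes were the ages fully apart. P5 control 3 and P5 combination 1 reached into the P2 range, with 69.8 and 52.4 CPM of Ccnb1 against 1.56 to 8.07 in the other 8 P5 libraries. P2 MEIS2 library 2, with 3.08, was the low end at P2.

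Mitotic genes share promoter elements, the CCAAT box bound by NF-Y and the cell cycle genes homology region with the core TTTGAA. The promoters of 3 mitotic genes that fell together are shown, 5′ to 3′ on the gene's strand, with both motifs in capitals on either strand. The window searched was the 250 bases before the RefSeq start on GRCm38.p6. GENCODE places a transcript start inside it, at -9 in Cdc20, -84 in Ccnb1 and -31 in Ube2c from the RefSeq start, and the letters printed end before that start. They lie at chr4:118437353-118437593 (Cdc20, minus strand), chr13:100786571-100786736 (Ccnb1, minus strand) and chr2:164769679-164769897 (Ube2c, plus strand).
Cdc20: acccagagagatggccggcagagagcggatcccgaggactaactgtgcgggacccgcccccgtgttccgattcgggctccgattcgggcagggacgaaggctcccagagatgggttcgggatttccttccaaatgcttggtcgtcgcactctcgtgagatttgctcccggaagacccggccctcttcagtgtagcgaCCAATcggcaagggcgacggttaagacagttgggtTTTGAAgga
Ccnb1: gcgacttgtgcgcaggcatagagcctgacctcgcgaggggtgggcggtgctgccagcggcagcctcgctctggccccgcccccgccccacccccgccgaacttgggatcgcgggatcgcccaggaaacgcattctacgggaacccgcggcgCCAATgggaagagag
Ube2c: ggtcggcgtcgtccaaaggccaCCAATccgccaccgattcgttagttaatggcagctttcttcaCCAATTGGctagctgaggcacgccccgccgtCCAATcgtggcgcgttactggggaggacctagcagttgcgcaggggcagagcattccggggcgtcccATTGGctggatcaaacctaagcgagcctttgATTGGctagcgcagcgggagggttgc

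Positions count from the RefSeq start. In Cdc20 the TTTGAA core lies at -18 with a CCAAT box on each side, at -53 and -8, of which the latter lies past the GENCODE start. The Ccnb1 window holds 2 CCAAT boxes, at -99 and, past the GENCODE start, at -67, and no TTTGAA. The Ube2c window holds 6 CCAAT boxes over both strands, of which a pair overlaps, and the core on the reverse strand at -29, past the GENCODE start. Of the 30 G2 and mitosis genes, 26 had a window, and of the 30 S phase genes 23, with 26 windows. CCAAT was found in 73.1% of mitosis windows, 61.5% of S phase windows and 33.8% of all 32851 windows of the table, and TTTGAA in 30.8%, 11.5% and 16%. An E2F site, spelled TTTCCCGC or TTTGGCGC, was found in 0%, 23.1% and 1.3%. All motifs were searched on both strands, and a match is a description of letters and not a bound site.

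The 3 genes behaved alike across libraries. Cdc20, the activator of the anaphase complex, had 0 to 132 CPM at P2, median 79.4, and 1.81 to 72.7 at P5, median 5.88 (-2.52, SE 0.651, adjusted p = 0.00569). Ccnb1 had 3.08 to 137 CPM at P2, median 84.2, and 1.56 to 69.8 at P5, median 4.77 (-2.78, SE 0.656, adjusted p = 0.00314). Ube2c, the ubiquitin-conjugating enzyme of that complex, had 15.4 to 604 CPM at P2, median 275, and 1.87 to 202 at P5, median 8.04 (-2.94, SE 0.758, adjusted p = 0.00569). P5 control 3 was the highest P5 library for each, and the 0 of Cdc20 was in P2 MEIS2 library 2. Without P5 control 3 and P5 combination 1, 30 of 30 fell with a median of -3.65. Within cluster 3, 10 of 22 tested mitosis genes and 15 of 26 tested S phase genes fell, with medians of -0.96 and -0.66. Pcna did not pass there (-0.21, adjusted p = 0.457).

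Of 24 cyclins, kinases and inhibitors, 14 fell and 3 rose. The 3 that rose act in G1: Ccnd2, from a median of 0.729 CPM to 7.64 (3.62, SE 0.418, adjusted p = 7.41e-06), Ccnd3, from 50.8 to 174 (1.72, SE 0.242, adjusted p = 4.42e-05), and Cdk6, from 104 to 202 (0.99, SE 0.153, adjusted p = 0.000105). For Ccnd2 and Ccnd3 every P5 library lay above every P2 library. Mycn, a driver of growth in retinal progenitors, fell by 2.18 and E2f1 by 1.76 on the log2 scale. The cycle inhibitors Cdkn1b (0.11, adjusted p = 0.694) and Cdkn1c (0.05, adjusted p = 0.894) and the pocket protein gene Rb1 (0.00, adjusted p = 0.991) did not pass.

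Of 26 tested Wnt, Hedgehog and FGF genes of 30, 13 rose and 4 fell, with a median of 0.48. The Hedgehog receptor Ptch1 rose from a median of 48.7 CPM to 106 (1.19, SE 0.125, adjusted p = 2.7e-06) and its coreceptor Boc by 1.505 on the log2 scale, while Gli3, mostly a repressor, fell by 0.63. Fgfr1 rose from 38.9 to 83.8 CPM, with every P5 library above every P2 library (1.26, SE 0.136, adjusted p = 3.87e-06). The FGF targets Spry1, Etv4 and Dusp6 rose by 1.02, 1.58 and 0.88. Axin2, a Wnt target, fell by 0.70 and had -0.35 in cluster 3 (adjusted p = 0.212).

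Stress and immediate early genes rose in 14 of 14 tested members of 15, with a median of 2.86, and in 13 of 14 within cluster 3. Fos, induced within minutes of stimulation or dissociation, had 73.7 to 1270 CPM at P2, median 179, and 1053 to 3055 at P5, median 1556 (2.91, SE 0.316, adjusted p = 3.91e-06). Junb rose by 2.96 and Jun by 2.00, both with no overlap. The list's sum was 703 to 3100 CPM at P2 and 3739 to 8926 at P5, and its part in the other age differences was not tested. Microglia markers rose in 6 of 9, with a summed level of 26.2 to 173 CPM at P2 and 40.7 to 189 at P5. In the 8 control libraries alone 0 of 4 tested markers passed. Their defining gene C1qa had 0 to 1.54 CPM at P2 and at most 14.7 at P5. Astrocyte markers rose in 3 of 4 tested members of 6, with sums of 6.16 to 26.1 and 17.0 to 41.5 CPM. Rod markers rose in 0 and fell in 0 of 13 tested (1 with an unadjusted p under 0.05), and their sum was highest, at 1661 CPM, in P2 MEIS2 library 2. Amacrine markers fell in 5 of 11 and rose in 1. At an unadjusted p under 0.05 in edgeR, 3 of 6 tested cone markers were lower and 2 of 3 starburst markers higher at P5. Of 4 horizontal cell markers 2 were lower and 1 higher, of 7 bipolar markers 1 and 1, and of 3 ganglion cell markers 2 and 0. The part of these cells' RNA in the result was not tested.

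**Figure D5:**
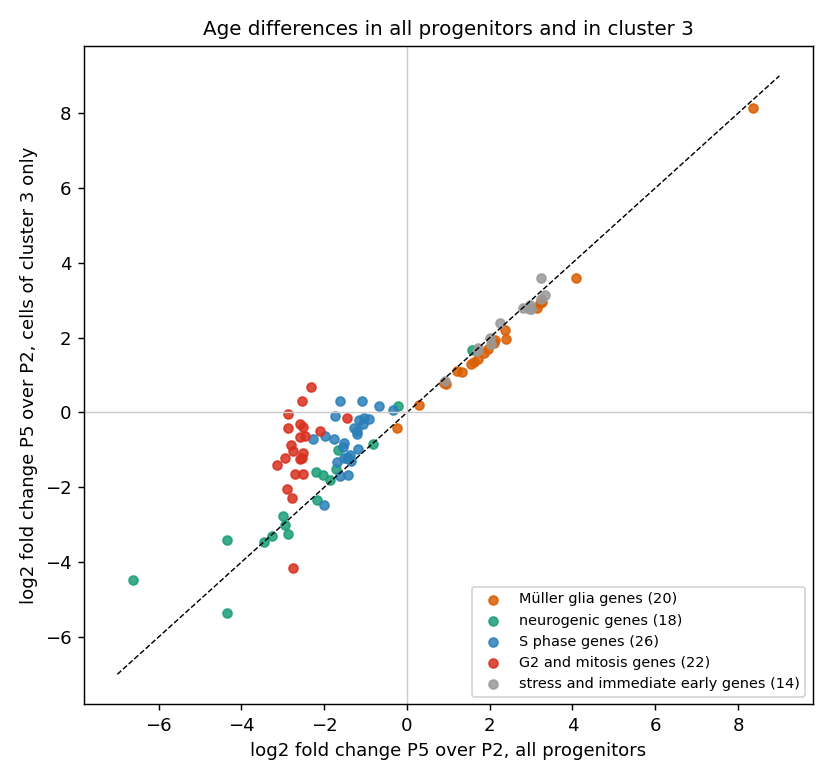
Each point is a gene of a list, with its log2 fold change of P5 over P2 in all progenitors on the horizontal axis and in cells of cluster 3 alone on the vertical axis; the dashed line marks equal values. Müller glia and stress genes lie near the line, and many S phase and mitosis genes lie above it, with medians of -1.48 and -2.61 in all progenitors and -0.66 and -0.96 in cluster 3.

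By the rule for named genes, the strongest risers with no overlap between ages were Cryab, Myof, Flt1, Rgs6, Synpr, Adamtsl1, S100a16, Olfm2, Aldoc and Cebpd. These were chosen by their values, so no list count is read from them. Cryab, a small heat shock protein gene (chromosome 9, 50751325 to 50756636, plus strand), had 1.86 to 13.7 CPM at P2, median 4.24, and 156 to 1285 at P5, median 590 (7.04, SE 0.525, adjusted p = 9.25e-08). Flt1, a VEGF receptor gene, went from a median of 1.79 CPM to 75.4 (5.50, SE 0.209, adjusted p = 4.93e-11). Rgs6, a regulator of G-protein signalling, went from 8.91 to 436 CPM, and Cebpd, a stress-responsive transcription factor, from 8.27 to 162. In P5 control 3 Cryab was 187 CPM, low among P5 controls, and P5 control 1 was the highest.

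The 10 falling genes named by the same rule were Dcc, Insm1, Srrm4, Otx2, Miat, Dll1, Cmtm7, Tagln3, Hes6 and Gm26742. Dcc, a netrin receptor gene, went from 88.6 to 627 CPM at P2 to 2.89 to 40.5 at P5 (-3.63, SE 0.51, adjusted p = 4.44e-05). Srrm4, which controls splicing in neurons, went from a median of 111 CPM to 14.5, and the long noncoding RNA Miat from 254 to 31.6. All 20 genes kept their call in each of 20 fits that left out 1 library. Their choice by call, size and lack of overlap made this likely, so it is no separate check.

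Meis1 and Meis2 RNA was high in the progenitors of libraries that were given the matching construct. Construct and endogenous transcripts cannot be told apart in these counts. Meis1 had 164 to 354 CPM in the P2 controls and 184 to 207 in the P5 controls. It had 2630 and 2099 CPM in the P2 MEIS1 libraries, 3750 and 3137 in the P5 MEIS1 libraries, 1001 and 887 in the P2 combination and 959 and 700 in the P5 combination. Meis2 had 95 to 197 CPM in the P2 controls and 34.6 to 50.1 in the P5 controls. It had 861 and 1830 CPM in the P2 MEIS2 libraries, 848 and 971 in the P5 MEIS2 libraries, 671 and 913 in the P2 combination and 1588 and 897 in the P5 combination. P2 control 1, whose cell barcodes are prefixed as a combination library, had 354 and 197 CPM of Meis1 and Meis2, the highest of the P2 controls. P2 combination library 2, whose cell barcodes are prefixed as a control, had 887 and 913. Each construct library thus held high RNA of the gene its title names, although the treatment tag names MEIS1 for all P2 single constructs and MEIS2 for all P5 ones. Against controls Meis1 was higher by 3.76 (SE 0.2) with MEIS1, and Meis2 by 3.72 (SE 0.223) with MEIS2, on the log2 scale.

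Beyond the constructs' own genes, little passed in progenitors. Over all 3 construct groups and both ages, 3 of 14849 genes passed (0.0202%): Meis2 (2.45, adjusted p = 3.98e-06), Meis1 (2.02, adjusted p = 4.74e-06) and Col11a1. Col11a1, a fibrillar collagen gene (chromosome 3, 114030540 to 114220718, plus strand), had 24.3, 24.2, 18.6 and 18.9 CPM in the P2 controls and 13.3 to 22.7 in the P2 MEIS libraries. It had 40.4, 68.6, 48.8 and 65.5 CPM in the P5 controls and 15.6 to 40.1 in the P5 MEIS libraries. All 6 P5 MEIS libraries lay below the 4 P5 controls, as in 0.168% of genes, while the P2 groups overlapped through the combination library at 22.7. The log2 fold change was -0.87 (SE 0.138, adjusted p = 0.0422), and the call held in 7 of 20 fits that left out a library, with adjusted p from 0.0234 to 0.151. Its adjusted p was 0.209 without TMM scaling and 0.0685 with groups from the barcode prefixes. With those groups Meis1 and Meis2 did not pass either (adjusted p = 0.149 and 0.204 in edgeR).

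With MEIS1 alone 1 gene passed (0.00673%), Meis1, and with MEIS2 alone 1 gene (0.00673%), Meis2. Without P2 MEIS2 library 1, which leaves the shallow library 2 alone in that group, 1942 genes passed with MEIS2 and 89 with any construct. With groups taken from the barcode prefixes, edgeR's test passed 0 genes with MEIS2, and 2965 had an unadjusted p below 0.05. On the labelled groups DESeq2 called 132. With the combination 3 genes passed (0.0202%), Meis2, Meis1 and Myof. Myof, a membrane repair gene (chromosome 19, 37899036 to 38043577, minus strand), had 90.1, 106, 46.2 and 77.6 CPM in the P5 controls and 18.5 and 21.3 in the P5 combination libraries. It had 34.5 and 43.8 CPM with MEIS2 and 91.9 and 80.8 with MEIS1 at P5. At P2 it was at most 2.62 CPM in every library. The log2 fold change with the combination was -2.02 (SE 0.304, adjusted p = 0.0208), kept in 15 of 20 fits without a library, with adjusted p up to 0.854. Over all construct groups Myof had -1.31 (adjusted p = 0.0501 in edgeR), and it passed with the replicate block (-1.53, adjusted p = 0.0475), in DESeq2 (adjusted p = 0.00143), without a filter on low counts (0.018), in cluster 3 alone (0.0487) and without P5 control 3 (0.00247). The construct contrasts share their controls.

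In progenitors 0 genes passed edgeR's test of a difference between the MEIS effects at P5 and P2 (0%). At an unadjusted p of 0.05, 331 genes passed, and DESeq2 called 2. GFP had 10558 to 46150 CPM in controls and 2416 to 11466 in MEIS libraries, with overlap at both ages (-1.97, SE 0.393, adjusted p = 0.219). Its adjusted p was 0.0463 in edgeR without P2 MEIS2 library 1, 0.0325 with the replicate block and 0.00444 in DESeq2. Of the gene lists, 0 of 20 tested Müller glia genes, 0 of 20 neurogenic, 0 of 30 S phase and 0 of 30 mitosis genes passed with MEIS, and 1, 0, 1 and 0 had an unadjusted p under 0.05. Their medians were -0.19, -0.10, 0.08 and -0.78, against -0.03 over all genes. By construct, the mitosis median was -0.61 with MEIS1, -1.70 with MEIS2 and 0.08 with the combination, and the S phase median -0.06, -0.18 and 0.51, with no member past the threshold and medians over all genes of -0.03, -0.05 and -0.01. Libraries of a group lay far apart in the mitosis list, whose sum was 2250 and 630 CPM in P2 MEIS2 libraries 1 and 2. It was 1735 and 431 CPM in P5 combination libraries 1 and 2, and 2683 in P5 control 3 against 147 to 204 in the other P5 controls. A p that misses the threshold does not show that the genes of these lists are alike.

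The share of progenitors differed by 0.888 points between MEIS and control libraries (exact permutation test of construct labels within each age, adjusted p = 0.822). The S phase-rich share differed by 1.604 points (adjusted p = 0.822), the mitosis-rich share by 0.156 (adjusted p = 0.970), the neurogenic-rich share by 4.11 (adjusted p = 0.822) and the glia-rich share by -0.516 (adjusted p = 0.822). In each of these measures the MEIS and control libraries of an age overlapped. When 1 library was left out, the difference ran from -0.172 to 2.21 points for all progenitors and from -1.01 to 3.99 for S phase-rich ones. It ran from -3.36 to 3.64 for mitosis-rich, -0.287 to 6.76 for neurogenic-rich and -0.769 to -0.0233 for glia-rich progenitors.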

How the data were processed

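RNA of single cells was counted in 20 libraries. Per the labels and the series design text, the authors used 10x Genomics 3′ chemistry and Cell Ranger on mm10 with an added GFP locus, and the submitters' processing notes name Seurat 5. Their filters on cells are not given in the sources used here. In the deposited count table each value is a whole number of UMIs, a count the authors left unnormalized. A second deposited table gives for every cell the authors' cell type, cluster number and library, counts of UMIs and genes, and mitochondrial UMIs as a percent of a cell's UMIs.

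A cell's library was taken from the deposited library column, and treatment from the titles. Barcode starts differ from titles in 10 of 20 libraries, the treatment tag contradicts the titles of single constructs, and where the sample labels have MEIS1 and MEIS2 the design text has NR2F1 and NR2F2. The members and all gene lists were chosen with earlier results of these data known.

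UMIs of a library's progenitors were summed, with at least 20 cells a library. Genes passed edgeR's default filter (14849 genes), were scaled by TMM and tested in edgeR 4.0.16 (R 4.3.3) by the two-sided quasi-likelihood test with Benjamini-Hochberg adjustment within each contrast. Contrasts weight groups equally: the 4 P5 groups less the 4 P2 groups, and construct groups less controls over both ages. Levels in CPM use plain totals, without TMM. Cells were thinned to 2000 UMIs and shallower cells left out. Shares were tested over 15120 regroupings of age and 44100 of construct. Doublets were called with Scrublet (scanpy 1.11.5, Python 3.11.15, expected 6%) and kept in the sums; an alternative leaves them out. Counts of 14442 genes were simulated for the age contrast, with 100 genes changed by a log2 size of 1 and 100 by 2. The changed genes were drawn from the better expressed ones. Of these, 85% and 97% were recovered, with 11 false calls. Far fewer genes were changed than passed in the data, so these rates need not hold there or for low genes.

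Genes were named by these rules. Identity genes have at least 50 CPM and the largest median difference of log2 (CPM + 5) to the highest of neurogenic, rod, amacrine and bipolar cells (20 genes). Age genes passed, average at least 5 in log2 CPM and do not overlap between ages (10 rising, 10 falling). MEIS genes are those called, variable genes the 20 with the highest ratio of variance to mean, and members of the lists and markers were always eligible. Gene positions are from GENCODE vM21 on mm10, promoters from RefSeq on GRCm38.p6. Alternatives were DESeq2 1.42.0, no TMM, no filter, the replicate number as a block, each library left out, no doublets, at least 1000 UMIs or 50 cells, groups by barcode start, other thinning depths and thresholds and, added after seeing the data, cluster 3 alone, controls alone, and leaving out P5 control 3 with P5 combination 1.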

Additional observations from a re-analysis of the deposited data

Results flagged for a closer look

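Among 38 sets of 4 control values tested for a single value far from the other 3, 5 were found, where chance gives about 1 in 20. P5 control 3 gave 4 of them. Its S phase-rich progenitors were 23.1%, with 2.86% to 5.70% in the other P5 controls, and its mitosis-rich progenitors 22.0%, with 1.43% to 4.15%. Its summed S phase genes were 1217 CPM, with 339 to 379 in the others, and its summed G2 and mitosis genes 2683 CPM, with 147 to 204. Its Müller glia genes Rlbp1 (1135 CPM) and Apoe (6091 CPM) still lay above every P2 library.

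P5 control 2 had the highest summed Notch pathway genes, 3424 CPM, with 2487 to 2571 in the other P5 controls.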

How the results depend on the processing

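Counts and shares stayed within 1.5 times the reported value, or on their side of the threshold, in 108 of 125 alternatives other than leaving out a library, and named genes kept their call in 374 of 397. The named genes include the age genes, chosen as called and without overlap, for which a kept call was likely. For any MEIS, DESeq2 called 11 genes, no filter 5, the replicate block 6, at least 1000 UMIs 5 and cluster 3 alone 5. For MEIS2 DESeq2 called 132 genes, for the combination 6 and for the difference between ages 2, and without a filter the combination gave 5. Groups taken from barcode starts gave 0 genes for any MEIS, MEIS2 and the combination in edgeR, with 2139, 2965 and 1512 at an unadjusted p under 0.05. Age in the 8 controls gave 2117 genes. Leaving out each library gave 4907 to 6256 genes for age, 2 to 89 for any MEIS, 1 to 1942 for MEIS2, 2 to 4 for the combination and 0 to 8 for the difference between ages. Each highest MEIS2, any MEIS and between-age count came without P2 MEIS2 library 1, which leaves only the shallow library 2 in that group, assumed to vary like the others. For any MEIS, leaving out P2 MEIS2 library 2 or P5 control 3 gave 6 genes each, and for MEIS2 leaving out P2 MEIS2 library 2 gave 2. Without thinning, the age differences were 16.002 points for S phase-rich cells and 9.79 for neurogenic-rich cells, both reversed, -13.6 for mitosis-rich and 1.44 for glia-rich cells, none past the threshold. The neurogenic-rich difference was -28.0 to -15.6 points when a library was left out. The cause of these changes was not tested.

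Titles number replicates, but nothing states that numbers pair libraries. Differences between replicates 1 and 2 correlated across genes at -0.25 to 0.69 between P2 groups and 0.03 to 0.55 between P5 groups. The replicate block gave 6117 genes for age. At 63 to 2482 progenitors a library, low genes rest on few UMIs, and intervals cover counting error only.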
